A study of Mus musculus with 33 samples.

Results

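The comparison described here was the change in gene expression between day 0 and day 4 of embryoid body (EB) differentiation in the deletion clone dK9.2, which took 6 of the 33 libraries of the series, 3 from each day. The series followed mouse embryonic stem (ES) cells of the line E14Tg2a and of 2 clones derived from it, dK9.1 and dK9.2, as EBs on days 0, 4, 6 and 8. Both clones were made by CRISPR and lack, on both alleles, a stretch between the Nanog promoter and its upstream enhancer that carries H3K9me3, a histone mark of silent chromatin, in undifferentiated cells. The question behind the series was what that stretch does to Nanog and to differentiation, and within dK9.2 the comparison asked which genes changed once the cells had left self-renewal.

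The day 0 libraries came from dK9.2 cells kept undifferentiated on gelatine in medium with serum (FCS) and LIF, the cytokine that sustains mouse ES cells. The day 4 libraries came from dK9.2 aggregates that had spent 4 days floating in serum medium without LIF. Both groups carried the deletion, so the comparison contrasts days and not genotypes, and dK9.2 is a single clone. LIF withdrawal, aggregation and time changed together between the groups and cannot be told apart. Each library was made from a bulk culture, in which fewer cells of a type and less RNA per cell cannot be told apart.

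Mouse ES cells in serum and LIF resemble the early epiblast. LIF signals through its receptor and the kinase JAK to the transcription factor STAT3, which keeps up naive pluripotency factors such as KLF4 and TFCP2L1 and its own inhibitor SOCS3. When LIF is removed, cells normally pass through a formative state, driven by FGF-ERK signalling and OTX2, before they form the primitive streak and the germ layers. A rim of primitive endoderm, marked by GATA4, GATA6 and SOX17, commonly forms on EBs and matures into visceral endoderm that secretes AFP, TTR and apolipoproteins.

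Expression was given as TPM, a level scaled by transcript length and by library. Each of the 6 libraries had between 13098 and 13829 genes at 1 TPM or more. Pou5f1, the general pluripotency factor OCT4, was at 1674, 1652 and 1865 TPM on day 0 and 1086, 1316 and 1292 TPM on day 4, and the fibroblast gene Col1a1 did not exceed 0.371 TPM. Of the 14370 genes tested, with a mean of at least 1 TPM on either day, the median log2 difference was -0.20, a shift of the whole distribution towards lower values on day 4. Over the same days, the share of all TPM taken by 80 cytosolic ribosomal protein genes went from between 23.7 and 25.2% to between 29.5 and 30.9%. TPM are relative values, and the part of the ribosomal protein genes in the shift was not tested. All log2 differences below are day 4 minus day 0 on the scale log2(TPM + 1), which understates the change of low genes, and are to be read against the median of -0.20.

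Replicate 1 stood apart from replicates 2 and 3 in several endoderm markers on both days. The summed level of Gata4, Gata6, Sox17 and Pdgfra, which mark primitive endoderm, was 26.4 TPM in replicate 1 on day 0 against 1.49 and 2.20 TPM in the other two, and 22.9 TPM on day 4 against 2.18 and 2.07 TPM. The sum of the whole list of primitive endoderm regulators went the other way on day 0, with 131.3 TPM in replicate 1 against 198.8 and 180.2 TPM. On day 4 it was 231.5 TPM against 98.8 and 65.1 TPM. On day 4 replicate 1 also kept more of the naive factors, whose summed level was 1166 TPM against 925 and 595.9 TPM. Counts of endoderm genes are given below with and without replicate 1. Without it on both days, 15 naive factors were called lower, against 14 with it.

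Between day 0 and day 4, 406 genes were higher and 805 were lower in dK9.2, which is 2.83% and 5.6% of the genes tested (limma, Benjamini-Hochberg adjusted p under 0.05 and an absolute log2 difference above 1; such genes are called below). With libraries rescaled by the median ratio of their genes, which takes the shift out, the split was 587 higher and 520 lower. Of the 1211 called genes, 1202 had no overlap between the 3 day 0 and the 3 day 4 libraries, which held for 49.8% of all genes tested. Changes above 2 on the log2 scale were found for 70 higher and 91 lower genes. With 3 libraries against 3, an exact permutation test of a single gene cannot give a two-sided p below 0.1, so the calls rest on the variance that limma shares across genes.

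The largest falls among genes at 5 TPM or more were led by Mras, which encodes a RAS-family GTPase. Mras was at 70.3, 72.2 and 56.8 TPM on day 0 and 3.64, 2.96 and 0.885 TPM on day 4 (log2 difference -4.36 ± 0.32 (SE), adjusted p = 0.000305). Socs3, the inhibitor of JAK-STAT3 signalling, was at 116, 97.7 and 88.8 TPM on day 0 and 4.64, 5.28 and 4.61 TPM on day 4 (log2 difference -4.12 ± 0.13 (SE), adjusted p = 2.58e-05). Inhbb, the activin B subunit, followed at 45.7, 40.4 and 25.6 TPM on day 0 and 2.13, 1.43 and 0.334 TPM on day 4 (log2 difference -4.10 ± 0.34 (SE), adjusted p = 0.000511). In all 3 genes every day 4 library lay far below every day 0 library. Emp1 fell by 3.92 and Klf4 by 3.79 on the log2 scale. Gbx2, Tgm1 (a transglutaminase), Serpinb6c, Smarcd3 (a BAF chromatin remodelling subunit) and Krt42 completed the list, with log2 differences between -3.32 and -2.97.

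The largest rise was that of Cxcl12, a chemokine, at 0.667, 0.461 and 0.556 TPM on day 0 and 18.4, 32 and 32.5 TPM on day 4 (log2 difference 4.16 ± 0.23 (SE), adjusted p = 0.000117). Car4, a carbonic anhydrase, was at 8.19, 4.77 and 4.34 TPM on day 0 and 113, 98.9 and 97 TPM on day 4 (log2 difference 3.98 ± 0.21 (SE), adjusted p = 0.00011). Enpp2, which encodes the enzyme autotaxin, was at 0.361, 1.16 and 1.42 TPM on day 0 and 12.9, 25.8 and 31.4 TPM on day 4 (log2 difference 3.58 ± 0.35 (SE), adjusted p = 0.00084). Fgf5 followed, and then the repressor gene Bhlhe41 at 0.645, 0.472 and 0.665 TPM on day 0 and 11, 19.2 and 22.4 TPM on day 4 (log2 difference 3.49 ± 0.26 (SE), adjusted p = 0.000307). Day 0 levels of Cxcl12 and Bhlhe41 were under 1 TPM in each library. Krt18, Kif1a (a kinesin), Psmb8, Pim2 (a kinase) and Afp made up the rest of the 10 largest rises, with log2 differences between 3.34 and 3.20. The rise of Afp was carried mostly by replicate 1 and is described with the endoderm genes. Pim2 was uneven across replicates too, with 75.2, 219.8 and 346 TPM on day 4 against 14, 19.06 and 24.1 TPM on day 0 (log2 difference 3.20 ± 0.50 (SE), adjusted p = 0.00368).

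Nanog, the pluripotency factor next to the deleted stretch, lies at chr6:122707489-122714633 on the + strand (mm10). Its core promoter is shown because it lies beside the deletion and contains a joint OCT4-SOX2 motif, searched on both strands and found in 2 of the 32851 RefSeq promoters (0.00609%; GRCm38.p6, 250 bases before to 50 after each start), both of them Nanog's. The match, in capitals, begins 75 bases before the upstream Nanog start and 151 before the other, within chr6:122707384-122707457 on the + strand.
Nanog: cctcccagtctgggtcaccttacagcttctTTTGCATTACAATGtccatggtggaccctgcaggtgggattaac

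Nanog was at 412, 439 and 426 TPM on day 0 and 208, 234 and 190.3 TPM on day 4 (log2 difference -1.01 ± 0.09 (SE), adjusted p = 0.000624). All 3 day 4 libraries were below all 3 day 0 libraries, and the mean fell to 49.5% of its day 0 level. The call sits at the threshold: with rescaled libraries the difference was -0.80 and Nanog was no longer called. The levels of Nanog went on to 179 and 172 TPM in the 2 libraries of day 6 and to 118, 69.9 and 126 TPM on day 8.

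Of the 5 measured genes of the Nanog neighbourhood on chromosome 6, 3 fell and 0 rose, against 5.6% of all genes lower. Gdf3, a TGF-beta family ligand at chr6:122605403-122610087, was at 35.5, 41.5 and 44.8 TPM on day 0 and 19.7, 18.8 and 14.8 TPM on day 4 (log2 difference -1.15 ± 0.14 (SE), adjusted p = 0.0019). Apobec1, an RNA-editing enzyme gene at chr6:122577792-122602444, was at 13, 10.2 and 9.16 TPM on day 0 and 4.19, 3.09 and 3.23 TPM on day 4 (log2 difference -1.38 ± 0.18 (SE), adjusted p = 0.00218). Apobec1 and Gdf3 had no overlap between days. Slc2a3, the glucose transporter GLUT3 at chr6:122727809-122801640, was at 577, 604 and 495 TPM on day 0 and 745, 573 and 608 TPM on day 4 (log2 difference 0.20 ± 0.12 (SE), adjusted p = 0.235). Dppa3, also called Stella, at chr6:122626410-122630272, was at 17, 39.6 and 56.8 TPM on day 0 and 72.2, 75 and 43 TPM on day 4 (log2 difference 0.84 ± 0.41 (SE), adjusted p = 0.145). Both of the latter overlapped between days, and Dppa3 was uneven across the day 0 libraries. With rescaled libraries 1 of the 3 falls, that of Apobec1, was called.

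Of 17 naive pluripotency factors tested, 14 fell and 0 rose, against 5.6% of all genes lower, and their median log2 difference was -1.97. Klf4 had the largest fall of the list. It was at 57.8, 67.9 and 59.3 TPM on day 0 and 5.15, 4.32 and 1.84 TPM on day 4 (log2 difference -3.79 ± 0.27 (SE), adjusted p = 0.000293). Klf5 was at 116, 102 and 91.5 TPM on day 0 and 24, 17.8 and 11.7 TPM on day 4 (log2 difference -2.51 ± 0.23 (SE), adjusted p = 0.000725). Klf2, the third of the family, was at 183, 176 and 191 TPM on day 0 and 144, 96.7 and 70.6 TPM on day 4 (log2 difference -0.88 ± 0.22 (SE), adjusted p = 0.0209) and did not reach the fold threshold. The 3 genes thus differed in the share of the day 0 mean that was left, 6.12% for Klf4, 17.3% for Klf5 and 56.4% for Klf2.

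Gbx2, a homeobox gene downstream of LIF, was at 30.7, 23.6 and 17.7 TPM on day 0 and 2.18, 1.28 and 1.01 TPM on day 4 (log2 difference -3.32 ± 0.25 (SE), adjusted p = 0.000333). Tfcp2l1, another factor under STAT3, was at 79.1, 84.6 and 59.9 TPM on day 0 and 22.8, 13.8 and 7.13 TPM on day 4 (log2 difference -2.40 ± 0.35 (SE), adjusted p = 0.00313). Zfp42, also known as Rex1 and the customary naive marker, was at 658, 700.0 and 666 TPM on day 0 and 229, 169.6 and 85.6 TPM on day 4 (log2 difference -2.17 ± 0.31 (SE), adjusted p = 0.00278). Day 4 levels of all 3 genes were highest in replicate 1 and lowest in replicate 3, yet stayed clear of day 0. Esrrb, the orphan nuclear receptor, was at 317, 312 and 272 TPM on day 0 and 124, 99.3 and 61 TPM on day 4 (log2 difference -1.71 ± 0.23 (SE), adjusted p = 0.00241). Tbx3, Zfp57, Tcl1, Tet2, Nr0b1, Nr5a2 and Prdm14 were the remaining called members, with log2 differences from -2.38 to -1.10. Fgf4, the FGF ligand made by ES cells, went from 93.6, 97.2 and 90.2 to 86.5, 62.6 and 43.2 TPM without reaching the thresholds (-0.59, adjusted p = 0.0699), and so did Dppa3 above.

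Of 14 general pluripotency genes tested, 3 fell and 0 rose, against 5.6% of all genes lower, with a median log2 difference of -0.48. Tdgf1, the Nodal co-receptor CRIPTO, was at 641, 521 and 439.6 TPM on day 0 and 293, 176 and 133 TPM on day 4 (log2 difference -1.47 ± 0.27 (SE), adjusted p = 0.0068). L1td1 was at 409, 426 and 425 TPM on day 0 and 189, 182 and 153 TPM on day 4 (log2 difference -1.27 ± 0.09 (SE), adjusted p = 0.000307), and the fall of Dppa2 (-1.13, adjusted p = 0.0294) was the third. Pou5f1 (-0.49, adjusted p = 0.00766) was lower by less than the fold threshold. Sox2 was at 358, 379 and 345 TPM on day 0 and 324, 267 and 191 TPM on day 4 (log2 difference -0.50 ± 0.17 (SE), adjusted p = 0.0583). Lin28a and Utf1, by contrast, had positive differences below the fold threshold (0.73, adjusted p = 0.00305 and 0.77, adjusted p = 0.00185), with higher values in each day 4 library than in any day 0 library.

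Of 10 LIF pathway genes tested, 4 fell and 0 rose, against 5.6% of all genes lower, with a median log2 difference of -0.70. Bcl3, a STAT3 target and IκB-family co-regulator, was at 29.4, 30.3 and 22.3 TPM on day 0 and 3.41, 2.9 and 2.89 TPM on day 4 (log2 difference -2.79 ± 0.16 (SE), adjusted p = 0.000117). Stat3 itself was at 39.8, 32.9 and 30.1 TPM on day 0 and 13.5, 11.1 and 13.2 TPM on day 4 (log2 difference -1.37 ± 0.14 (SE), adjusted p = 0.00104). Junb, an early response gene, was at 27.9, 29.5 and 28.5 TPM on day 0 and 12.3, 11.4 and 18.2 TPM on day 4 (log2 difference -1.01 ± 0.17 (SE), adjusted p = 0.00526), a call that was lost under rescaling (-0.81). Lifr, the LIF receptor, was at 34.6, 23 and 14.9 TPM on day 0 and 33.8, 11.2 and 5.35 TPM on day 4 (log2 difference -0.77 ± 0.58 (SE), adjusted p = 0.323), and its co-receptor Il6st and the kinase gene Jak1 had log2 differences of -0.36 and -0.28, none of them called. Without replicate 1 on both days Lifr was called lower (-1.15, adjusted p = 0.0358) and Junb was no longer called (-0.96). The receptor genes overlapped between days, whereas Socs3 did not and had 4.8% of its day 0 level left.

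The Socs3 and Psmb8 promoters are set side by side because these genes were at opposite ends of the ranking and both contain the STAT-type pattern TTCNNNGAA, which reads the same on both strands and occurs in 8.3% of RefSeq promoters. Among the LIF pathway list the pattern was found for 1 of 10 genes, Socs3. Psmb8, an interferon-inducible proteasome subunit, rose. The match is in capitals and begins 154 bases before the Socs3 start, within chr11:117969482-117969550 on the - strand, and 97 bases before the Psmb8 start, within chr17:34198068-34198136 on the + strand (both GRCm38.p6).
Socs3: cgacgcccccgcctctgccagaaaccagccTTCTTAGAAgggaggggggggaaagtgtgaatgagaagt
Psmb8: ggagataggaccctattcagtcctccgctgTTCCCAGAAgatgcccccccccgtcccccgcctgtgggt

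Of 15 genes of the formative and primed epiblast tested, 10 rose and 1 fell, against 2.83% of all genes higher, and the median log2 difference was 1.48. Fgf5, the classic epiblast ligand, was at 0.142, 0.747 and 1.12 TPM on day 0 and 15.1, 18.9 and 21.3 TPM on day 4 (log2 difference 3.57 ± 0.26 (SE), adjusted p = 0.000293). Otx2, the homeobox factor of the formative state, was at 23.6, 19.99 and 19.6 TPM on day 0 and 142, 128 and 122 TPM on day 4 (log2 difference 2.58 ± 0.11 (SE), adjusted p = 7.63e-05). Pou3f1, also known as OCT6, was at 4.18, 5.54 and 5.58 TPM on day 0 and 27.6, 33.2 and 39.6 TPM on day 4 (log2 difference 2.49 ± 0.17 (SE), adjusted p = 0.000266). In these 3 genes each day 4 library lay well above each day 0 library. Dnmt3b, a de novo DNA methyltransferase, was at 64.5, 47.8 and 59.6 TPM on day 0 and 218, 372 and 414 TPM on day 4 (log2 difference 2.48 ± 0.23 (SE), adjusted p = 0.000751). Zic2 was at 5.42, 13.7 and 14.7 TPM on day 0 and 39.2, 48 and 49.9 TPM on day 4 (log2 difference 2.03 ± 0.32 (SE), adjusted p = 0.00407). Lef1, Sox3, Sox11, Dnmt3a and Zic5 also rose, with log2 differences between 1.91 and 1.04. Sox3 was the least even of these, with 3.5, 8.24 and 14.7 TPM on day 4, lowest in replicate 1. The member that fell was Etv4, an ETS factor downstream of FGF, at 76.1, 65.4 and 51 TPM on day 0 and 13.3, 11.4 and 12.6 TPM on day 4 (log2 difference -2.26 ± 0.16 (SE), adjusted p = 0.000266).

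**Figure D1:**
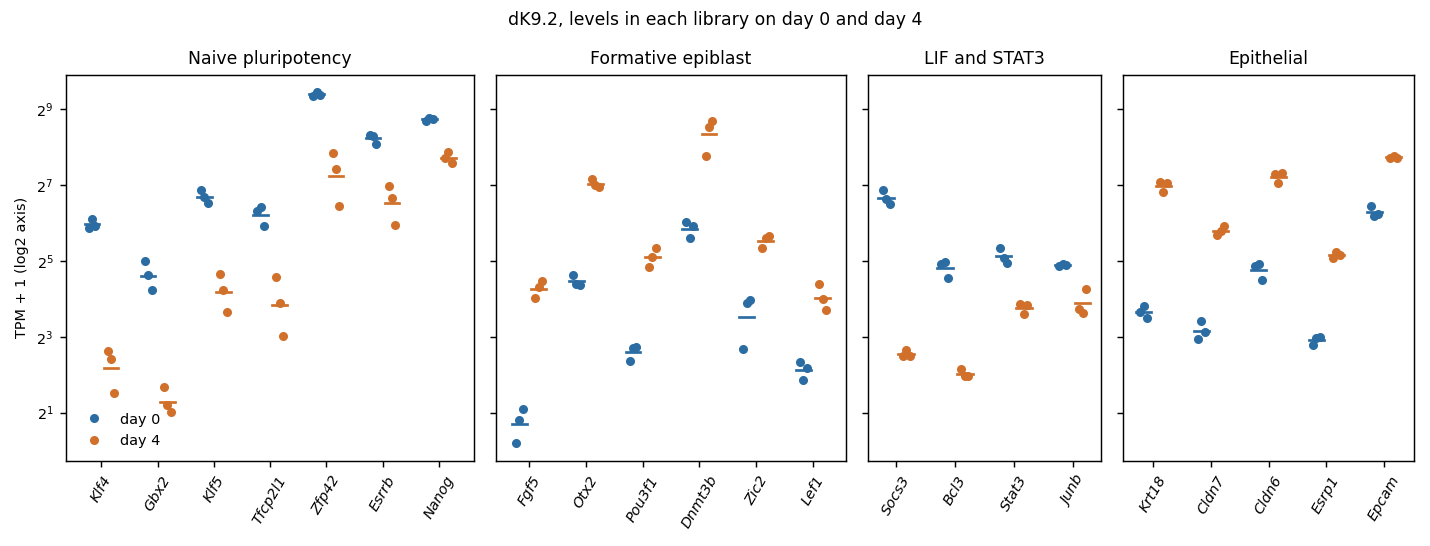
TPM + 1 of naive, formative, LIF pathway and epithelial genes in each of the 6 dK9.2 libraries (points; log2 axis; blue, day 0; orange, day 4; bars, mean of the log2 values of 3 libraries). Naive and LIF genes lie lower and formative and epithelial genes higher on day 4, with no overlap between days for any gene plotted.

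Of 21 FGF-ERK genes tested, 5 rose and 4 fell, against 2.83% of all genes higher and 5.6% lower. Among the ligands, Fgf5 rose and so did Fgf8, at 0.35, 0.516 and 0.883 TPM on day 0 and 1.91, 3.64 and 4.1 TPM on day 4 (log2 difference 1.39 ± 0.27 (SE), adjusted p = 0.00785), while Fgf17 fell from 9.73, 17.9 and 14.5 to 2.32, 3.22 and 2 TPM (-2.08, adjusted p = 0.00152). The receptor Fgfr2 rose (1.18, adjusted p = 0.00178), and Fgfr1, the receptor with the highest level, was at 33.5 ± 3.76 TPM on day 0 and 37 ± 1.99 TPM on day 4 (mean ± SD, n = 3; 0.15, adjusted p = 0.347). Feedback genes split: the phosphatase Dusp4 rose from 10.6, 7.34 and 8.4 to 43.3, 55.4 and 59.4 TPM (log2 difference 2.46 ± 0.17 (SE), adjusted p = 0.000266) and Spry1 rose (1.45, adjusted p = 0.000526), whereas Spry4 fell (-1.70, adjusted p = 0.0058), as did Spred1 (-1.11, adjusted p = 0.00104) and Etv4. Dusp6 and Etv5, read-outs of ERK activity in ES cells, were not called (0.36 and -0.16).

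In the Nodal pathway, 5 of 15 genes tested fell, against 5.6% of all genes. The falls were the ligand genes Inhbb and Gdf3, the co-receptor Tdgf1, the inhibitor Smad7 (-1.69, adjusted p = 0.00726) and the ligand-processing protease Pcsk6 (-1.63, adjusted p = 0.0111). Nodal was at 45.3, 44.9 and 35.6 TPM on day 0 and 28.7, 22.5 and 14.7 TPM on day 4 (log2 difference -0.94 ± 0.23 (SE), adjusted p = 0.0174), just short of the fold threshold. The ligand gene Gdf1 rose (1.21, adjusted p = 0.00758). Lefty1 and Lefty2, feedback inhibitors of Nodal, overlapped between days (0.13, adjusted p = 0.665 and -0.25, adjusted p = 0.445).

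Among 11 WNT genes tested, 2 rose and 2 fell, against 2.83% of all genes higher and 5.6% lower. The transcription factors Tcf7 and Lef1 rose, Tcf7 from 30.04, 31.4 and 26.5 to 95.5, 82 and 80.6 TPM (log2 difference 1.52 ± 0.11 (SE), adjusted p = 0.000307). The secreted WNT inhibitors Notum and Sfrp1 fell, Notum from 17.9, 16.4 and 18.2 to 1.83, 1.86 and 0.766 TPM (log2 difference -2.93 ± 0.22 (SE), adjusted p = 0.000307) and Sfrp1 from 24.5, 39 and 32.1 to 11.5, 14.9 and 13.7 TPM (-1.18, adjusted p = 0.00376). Axin2, a general WNT target, was not called (0.33, adjusted p = 0.269). Of 11 BMP genes, to be read against the same shares, Bmp4 and Smad7 fell and 0 rose, with 1 fall left without day 0 replicate 2 and 1 rise without day 4 replicate 1 or day 0 replicate 3. Bmp4 was at 30.1, 33.2 and 16.8 TPM on day 0 and 11.1, 5.19 and 2.28 TPM on day 4 (log2 difference -2.09 ± 0.46 (SE), adjusted p = 0.0126), and the BMP targets Id1 and Id3 overlapped between days (0.11 and 0.05).

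Of 14 epithelial genes tested, 7 rose and 0 fell, against 2.83% of all genes higher, with a median log2 difference of 1.10. Krt18, a simple epithelial keratin, was at 11.6, 13 and 10.2 TPM on day 0 and 135, 111 and 132 TPM on day 4 (log2 difference 3.34 ± 0.13 (SE), adjusted p = 4.64e-05). Cldn7, a tight junction claudin, was at 6.64, 9.59 and 7.74 TPM on day 0 and 50.1, 54.3 and 59.9 TPM on day 4 (log2 difference 2.64 ± 0.15 (SE), adjusted p = 0.000117), and Cldn6 was at 28.4, 29.4 and 21.4 TPM on day 0 and 155, 132 and 159 TPM on day 4 (log2 difference 2.46 ± 0.14 (SE), adjusted p = 0.000117). Krt18 and the claudins had no overlap and little spread on day 4. Esrp1, an epithelial splicing regulator, rose from 5.93, 6.85 and 6.95 to 32.6, 36.6 and 34.6 TPM (2.23, adjusted p = 0.000115). Cldn3, Epcam and Krt8 rose as well, with log2 differences of 1.76, 1.45 and 1.38. Cdh1, E-cadherin, was at 114, 129 and 114 TPM on day 0 and 154, 153 and 157 TPM on day 4, above day 0 in every library but below the fold threshold (0.38, adjusted p = 0.0123). Tjp1, Jup, Dsp and Krt19 were not called and overlapped between days.

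Of 7 mesenchymal genes tested, Vim, the intermediate filament vimentin, fell and 0 rose, against 5.6% of all genes lower. Vim was at 60.3, 58.2 and 45 TPM on day 0 and 8.35, 11.2 and 15.6 TPM on day 4 (log2 difference -2.15 ± 0.22 (SE), adjusted p = 0.000926). The basement membrane list had 1 fall among 13, that of Nid1 (-1.79, adjusted p = 0.011), against 5.6% of all genes, and its summed level on day 4 was 1124 TPM in replicate 1 against 584 and 467 TPM. Of 4 fibroblast genes tested none was called, and before adjustment 1 was higher and 1 lower at the 0.05 level, the lower one also at adjusted p under 0.05. Without day 4 replicate 1, 2 mesenchymal genes and 3 basement membrane genes fell and 2 fibroblast genes rose, and the same counts were found without replicate 1 on both days. The basement membrane falls numbered 2 without day 0 replicate 2 or 3.

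Markers of the germ layers were mostly low on day 4. T, or brachyury, which defines the primitive streak, was at 0.241, 0.538 and 0.84 TPM on day 0 and 0.518, 1.35 and 1.35 TPM on day 4 (log2 difference 0.42 ± 0.26 (SE), adjusted p = 0.248). Mixl1 was below the test minimum, with 0.562, 0.141 and 0.151 TPM on day 4. Eomes was at 2.49, 2.89 and 1.94 TPM on day 0 and 7.3, 4.22 and 4.04 TPM on day 4 (log2 difference 0.82 ± 0.24 (SE), adjusted p = 0.0338), higher in all 3 day 4 libraries but short of the fold threshold. Of the 22 streak genes measured, 7 reached the test, and Fgf8 rose while Fgf17 and Cdx1 fell, with 1 fall left without replicate 1 or 3 of day 0 or replicate 2 or 3 of day 4. Cdx1 was at 2.95, 0.681 and 1.12 TPM on day 0 and 0.313, 0.0649 and 0.0324 TPM on day 4 (log2 difference -1.10 ± 0.33 (SE), adjusted p = 0.0374).

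The later days of the same clone gave the scale for these values. T stood at 215 and 249 TPM in the 2 libraries of day 6, and at 218, 42.2 and 32.9 TPM on day 8. Mixl1 was at 57.9 and 54.7 and Eomes at 74.1 and 73.4 TPM on day 6. Fgf5 was at 62.5 and 53.4 TPM on day 6 and 19.06, 1.58 and 19.9 TPM on day 8, and Otx2 at 63.5 and 72.2 and then 26.8, 8.8 and 26.2 TPM. Day 4 therefore preceded the high streak levels in dK9.2, with formative genes already high. These comparisons share the day 0 libraries and were not tested here.

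**Figure D2:**
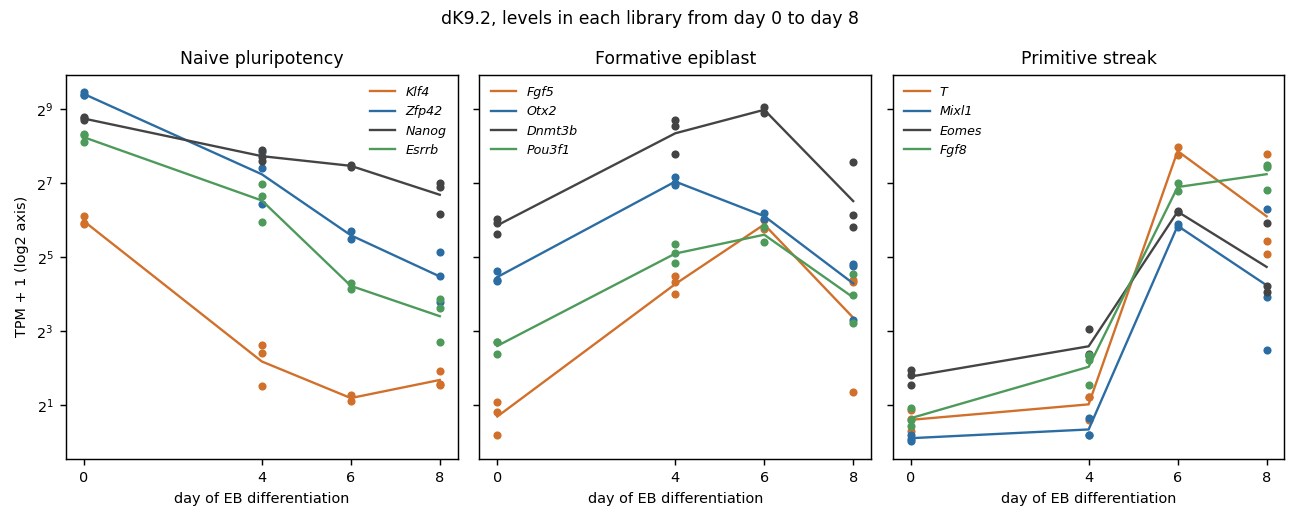
TPM + 1 in each dK9.2 library (points; log2 axis) on days 0, 4, 6 and 8, with lines through the means of the log2 values (3 libraries per day, 2 on day 6). Naive genes are lower from day 4 on, formative genes are high on days 4 and 6, and the streak genes T and Mixl1 are near 0 on day 4 and above 50 TPM in both day 6 libraries.

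Genes of other lineages had both called and uncalled members, to be read against the 2.83% higher and 5.6% lower among all genes. Of 9 later mesoderm and heart genes tested, Myl4 fell (-1.09, adjusted p = 0.0085) and 0 rose, and Tnnt2 was not tested. Of 6 blood and endothelial genes, the receptor gene Tek fell (-1.64, adjusted p = 0.00108), Hbb-bh1 was at 0 TPM in all 6 libraries, and Cdh5 did not exceed 0.186 TPM. Of 6 neural genes, 3 fell and 0 rose. Tubb3, a neuronal tubulin that ES cells also express, was at 48.1, 59.8 and 66 TPM on day 0 and 16.1, 15.9 and 19 TPM on day 4 (log2 difference -1.70 ± 0.14 (SE), adjusted p = 0.000526). Sox1, which marks neural progenitors, was at 2.53, 2.71 and 2.44 TPM on day 0 and 0.227, 0.26 and 0.486 TPM on day 4 (log2 difference -1.43 ± 0.19 (SE), adjusted p = 0.00206), Neurod1 fell (-1.69, adjusted p = 0.007), and Pax6 overlapped between days (-0.08). Of 5 trophoblast genes tested none was called, and 1 was lower at adjusted p under 0.05 alone. Among 11 germ cell genes Prdm14 fell and 0 rose, and Ddx4 was at 10.5 ± 1.12 TPM on day 0 and 9.37 ± 0.797 TPM on day 4 (mean ± SD, n = 3). Without replicate 1 on both days, 2 heart genes, 1 blood and 1 neural gene rose, and 3 germ cell genes and 1 trophoblast gene fell. The single falls of the heart and germ cell lists were lost without day 4 replicate 2, and that of the germ cell list also without replicate 2 or 3 of day 0 or replicate 3 of day 4.

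Rises among visceral endoderm genes were uneven across replicates. Of 15 tested, 3 rose and 0 fell, against 2.83% of all genes higher, with a median log2 difference of 1.19. Afp, alpha-fetoprotein, was listed at 0 TPM in every day 0 library and at 42.5, 2.75 and 3.75 TPM on day 4 (adjusted p = 0.0219). Ttr, transthyretin, was likewise listed at 0 and then at 23.9, 2.33 and 3.1 TPM (adjusted p = 0.018). Apoa1, an apolipoprotein, was at 0.0765, 0 and 0.294 TPM on day 0 and 23.8, 2.17 and 1.56 TPM on day 4 (log2 difference 2.39 ± 0.77 (SE), adjusted p = 0.046). Replicate 1 was far above the other two on day 4 for each of these genes, and all 3 day 4 libraries were above day 0. These 3 genes reached the test minimum through day 4 only, so the filter itself set their direction. Apoa4 and Apoc2 were below the minimum without replicate 1 on both days. The counts and the median of the list are therefore partly fixed by the filter. Without replicate 1 on both days 5 members rose and 1 fell, with log2 differences of 2.08 for Afp (adjusted p = 0.00174), 1.88 for Ttr (adjusted p = 0.00241) and 1.33 for Apoa1 (adjusted p = 0.011), and with any single day 0 library left out the count was 0.

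For the endocytic receptor genes of visceral endoderm replicate 1 was highest as well. Cubn, cubilin, was at 6.28, 0.044 and 0.251 TPM on day 0 and 25.4, 2.14 and 1.45 TPM on day 4 (log2 difference 1.47 ± 1.02 (SE), adjusted p = 0.293), and Dab2, its adaptor, was at 24.6, 3.14 and 1.84 TPM on day 0 and 80.1, 11.3 and 11.1 TPM on day 4 (log2 difference 1.77 ± 0.96 (SE), adjusted p = 0.187). On each day replicate 1 was far above the other two, and neither gene was called. Both were called without replicate 1 on both days (1.28, adjusted p = 0.0118 for Cubn and 1.83, adjusted p = 0.00241 for Dab2) and with a replicate block (adjusted p = 0.00596 and 0.00168), under which 5 members of the visceral endoderm list rose. Of 10 primitive endoderm regulators tested, 0 rose and 0 fell, against 8.43% of all genes called in either direction, and before adjustment 1 was higher at the 0.05 level. Gata4 was at 5.63, 0.33 and 0.752 TPM on day 0 and 6.3, 0.703 and 0.593 TPM on day 4 (log2 difference 0.12 ± 0.74 (SE), adjusted p = 0.915). Gata6 was at 7.44, 0.297 and 0.523 TPM on day 0 and 5.5, 0.692 and 0.55 TPM on day 4 (log2 difference 0.01 ± 0.80 (SE), adjusted p = 0.993), and Sox17 was at 8.82, 0.615 and 0.545 TPM on day 0 and 7.56, 0.465 and 0.647 TPM on day 4 (log2 difference -0.08 ± 0.88 (SE), adjusted p = 0.95). Replicate 1 was thus already high on day 0, and the days overlapped for these 3 regulators. Without replicate 1 on both days these 3 genes were below the test minimum, and of the other regulators 2 rose and 2 fell. With a replicate block 2 regulators, Dab2 among them, rose and 0 fell.

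The replicate order extended to the other lines, whose cells were differentiated in parallel. Over the 9 endoderm genes plotted and the 6 groups of days 0 and 4, replicate 1 had the highest of the 3 values in 46 of 51 cases with a value above 0. On day 4 the summed level of the visceral endoderm list was 346, 42.5 and 42.4 TPM in dK9.2, between 167 and 1351 TPM in E14Tg2a and between 17.3 and 76.9 TPM in dK9.1. The part of endoderm cells carried over from day 0 in these values was not tested.

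**Figure D3:**
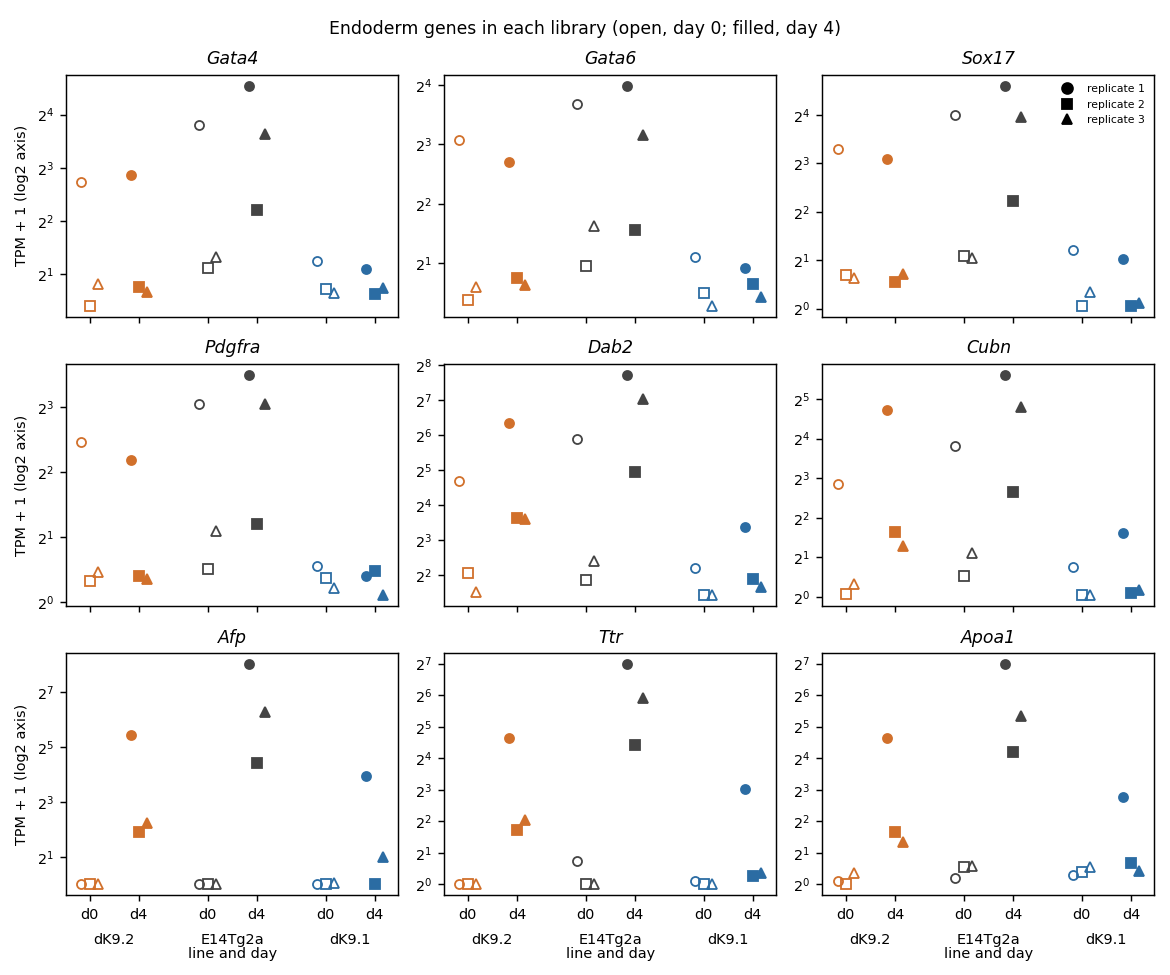
TPM + 1 (log2 axis) of 9 endoderm genes in each library of days 0 and 4 in dK9.2 (orange), E14Tg2a (grey) and dK9.1 (blue), 3 replicates each. In dK9.2, replicate 1 (circles) lies above the other replicates on day 4 for all 9 genes, and Afp and Ttr are at 0 in all 3 day 0 libraries.

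In the DNA methylation machinery, 2 of 11 genes tested rose and 3 fell, against 2.83% of all genes higher and 5.6% lower. The de novo enzymes Dnmt3b and Dnmt3a rose, Dnmt3a from 43.9, 31 and 34.5 to 121, 98.1 and 83.9 TPM (log2 difference 1.44 ± 0.17 (SE), adjusted p = 0.0016). The oxidases Tet1 and Tet2 fell. Tet1 was at 145, 122 and 108 TPM on day 0 and 53, 41.7 and 32.6 TPM on day 4 (log2 difference -1.55 ± 0.18 (SE), adjusted p = 0.00163) and Tet2 at 42.5, 37.2 and 32.5 TPM on day 0 and 16.1, 7.34 and 5.43 TPM on day 4 (log2 difference -1.97 ± 0.33 (SE), adjusted p = 0.00482). Zfp57, which protects imprints from demethylation, was at 298, 274 and 261 TPM on day 0 and 101, 54.1 and 29.5 TPM on day 4 (log2 difference -2.32 ± 0.37 (SE), adjusted p = 0.00411). The maintenance enzyme gene Dnmt1 (-0.55), its partner Uhrf1 (-0.27) and the cofactor gene Dnmt3l (-0.58) did not reach the fold threshold.

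The listed writers, readers and erasers of H3K9 methylation, the mark carried by the deleted stretch, were not called. Of 15 tested, 0 rose and 0 fell, near the 8.43% of all genes called in either direction, with log2 differences between -0.60 and 0.39. At adjusted p under 0.05 alone (limma), 1 was higher and 4 lower, against 9.01 and 24.7% of all genes tested. The list leaves out Zfp57, which the paper found to be required for H3K9me3 at Nanog. Zfp57 was called lower, as given above (-2.32). Trim28, which encodes KAP1, a protein that ZFP57 recruits, was not in the list either and was not called (-0.66). Setdb1, an H3K9 methyltransferase gene, was at 44.5, 50.3 and 41.5 TPM on day 0 and 29.7, 32.6 and 27.3 TPM on day 4 (-0.59, adjusted p = 0.00875), with each day 4 library below day 0. Of 19 Polycomb genes tested, Eed, a PRC2 subunit, fell and 0 rose. Eed was at 317, 308 and 295 TPM on day 0 and 161, 128 and 117 TPM on day 4 (log2 difference -1.19 ± 0.12 (SE), adjusted p = 0.000926), a call lost under rescaling (-0.98).

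Of 23 imprinted genes tested, 4 rose and 2 fell, against 2.83% of all genes higher and 5.6% lower. H19, a long non-coding RNA abundant in endoderm, was at 30.4, 16 and 24.7 TPM on day 0 and 333, 117 and 105 TPM on day 4 (log2 difference 2.75 ± 0.43 (SE), adjusted p = 0.00376), again with replicate 1 highest on day 4. Nnat rose from 6.4, 8.54 and 7.38 to 19.2, 32.9 and 65.8 TPM (2.09, adjusted p = 0.00655) and Snrpn from 119.5, 121 and 134 to 251, 369 and 375 TPM (1.38, adjusted p = 0.00138), both lowest in replicate 1. Magel2 was the other rise. Phlda2 fell from 74.4, 93.9 and 104 to 34, 36 and 37.4 TPM (-1.31, adjusted p = 0.000928), and Grb10 was the other fall. Igf2, Meg3 and Mest overlapped between days.

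Among 21 tested targets of ATF4, the transcription factor of the amino acid response, 11 fell and 0 rose, against 5.6% of all genes lower, and the median log2 difference was -1.08. With rescaled libraries 9 fell. Promoters of Chac1 and Nupr1 are shown because both genes fell and both contain the element TGATGCAA, searched on both strands. The element was found for 6 of the 19 list genes with a promoter in the table and in 0.895% of all RefSeq promoters. The match is in capitals and begins 193 bases before the Chac1 start, within chr2:119351019-119351086 on the + strand, and 110 before the Nupr1 start, within chr7:126625543-126625610 on the - strand (both GRCm38.p6).
Chac1: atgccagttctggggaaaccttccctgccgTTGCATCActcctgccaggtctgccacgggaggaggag
Nupr1: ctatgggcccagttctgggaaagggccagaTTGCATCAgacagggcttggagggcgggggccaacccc

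Chac1, a glutathione-degrading enzyme, was at 25.9, 24.6 and 34.2 TPM on day 0 and 10.6, 5.45 and 6.27 TPM on day 4 (log2 difference -1.83 ± 0.24 (SE), adjusted p = 0.00203). Nupr1, a small stress-induced chromatin protein, was at 76.6, 69.5 and 80.6 TPM on day 0 and 41.1, 24.3 and 17.7 TPM on day 4 (log2 difference -1.49 ± 0.26 (SE), adjusted p = 0.00571). Cth, the last enzyme of cysteine synthesis from methionine, was at 117, 125 and 157 TPM on day 0 and 56.4, 31.7 and 26.2 TPM on day 4 (log2 difference -1.84 ± 0.26 (SE), adjusted p = 0.00281). Trib3, a pseudokinase, was at 45.3, 43.2 and 52.3 TPM on day 0 and 17.3, 11.6 and 11.2 TPM on day 4 (log2 difference -1.76 ± 0.18 (SE), adjusted p = 0.000901). In all 4 genes the days did not overlap, and replicate 1 had the highest day 4 value in each. The serine and folate pathway enzymes Psph, Psat1, Shmt2 and Mthfd2, asparagine synthetase (Asns), the alanine aminotransferase Gpt2 and the amino acid transporter Slc7a5 also fell, with log2 differences between -1.46 and -1.08. Of the other genes with the element, Pycr1 (-0.88), Atf3 (-0.46) and Vldlr (0.10) were not called, and Slc7a11 was not tested. Ddit3, which encodes CHOP, overlapped between days (0.50).

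Of 28 hypoxia and glycolysis genes tested, 4 rose and 1 fell, against 2.83% of all genes higher and 5.6% lower. Adm, adrenomedullin, a HIF target, was at 1.53, 0.0549 and 0.273 TPM on day 0 and 11, 7.97 and 10.3 TPM on day 4 (log2 difference 2.83 ± 0.33 (SE), adjusted p = 0.0015). Ddit4, an mTORC1 inhibitor, was at 177, 128 and 112 TPM on day 0 and 433, 578 and 708 TPM on day 4 (log2 difference 2.03 ± 0.21 (SE), adjusted p = 0.00104). Pfkfb3 and Ndrg1 rose by less (1.16, adjusted p = 0.0149 and 1.05, adjusted p = 0.0479), and Pfkp, a phosphofructokinase, fell (-1.10, adjusted p = 0.0403) although its libraries overlapped. At adjusted p under 0.05 alone, 14 of the 28 were higher, against 9.01% of all genes tested. Among these, the glycolytic enzymes Aldoa and Gpi1 had log2 differences of 0.65 and 0.87. With rescaled libraries 8 genes rose, and without replicate 2 or replicate 3 of day 0 2 rose.

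Of 80 cytosolic ribosomal protein genes, 0 rose past the fold threshold and 2 fell, against 2.83% of all genes higher and 5.6% lower, with a median log2 difference of 0.30. At adjusted p under 0.05 alone, 53 were higher and 4 lower, against 9.01 and 24.7% of all genes tested. The 2 falls were the retrogene-type paralogues Rpl10l and Rpl39l, Rpl10l from 153, 118 and 135 to 57.6, 38.2 and 23.2 TPM (-1.83, adjusted p = 0.00384) and Rpl39l from 99.8, 63.3 and 81.7 to 35, 31.4 and 24.5 TPM (-1.39, adjusted p = 0.00247), whose reads can be shared with their parent genes. Mitochondrially encoded genes took between 3.07 and 3.81% of TPM on day 0 and between 2.01 and 2.45% on day 4. Of the 13, mt-Nd6 fell (-1.46, adjusted p = 0.007), against 5.6% of all genes lower, and 10 were lower at adjusted p under 0.05 alone, against 24.7%.

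Of 30 cell cycle and replication genes tested, 2 fell and 0 rose, a share near that of all genes (5.6% lower). Myc was at 17.1, 18.5 and 14 TPM on day 0 and 7.42, 6.05 and 4.39 TPM on day 4 (log2 difference -1.35 ± 0.20 (SE), adjusted p = 0.00305). Ccnd3, cyclin D3, was at 199, 188 and 170.2 TPM on day 0 and 96.5, 95.1 and 69 TPM on day 4 (log2 difference -1.10 ± 0.14 (SE), adjusted p = 0.00197). The replication helicase genes Mcm2 to Mcm7 had differences between -0.52 and -0.02, and the CDK inhibitor Cdkn1b, p27, was higher below the fold threshold (0.83, adjusted p = 0.00484). Of 12 p53 targets, Perp fell (-1.53, adjusted p = 0.00223) and 0 rose. Of 23 cholesterol and fatty acid synthesis genes none was called. At adjusted p under 0.05 alone 1 was higher and 4 lower, against 9.01 and 24.7% of all genes tested. Of 9 ubiquitous reference genes none was called either, with 2 higher and 1 lower at adjusted p under 0.05 alone.

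Antigen presentation and retinoic acid genes had a few large changes. Of 10 MHC class I genes tested, 2 rose and 0 fell, against 2.83% of all genes higher. With rescaled libraries 6 rose, without day 4 replicate 2 4 rose and without day 4 replicate 3 1 rose. Psmb8, whose promoter is shown above, was at 0.405, 0.264 and 0.643 TPM on day 0 and 9.65, 14.2 and 13.8 TPM on day 4 (log2 difference 3.22 ± 0.21 (SE), adjusted p = 0.00022), and Tap2, a peptide transporter subunit, was at 0.273, 0.571 and 0.72 TPM on day 0 and 1.62, 2.28 and 3.1 TPM on day 4 (log2 difference 1.12 ± 0.24 (SE), adjusted p = 0.0113). The class I chains H2-K1 and H2-D1 overlapped between days (0.39 and 0.12). Of 9 retinoic acid genes, 2 rose and 1 fell, with 1 rise left without replicate 1 or replicate 2 of day 0 and 2 falls without day 4 replicate 1. The binding proteins went in opposite directions, Crabp2 from 5, 4.53 and 3.61 to 13.4, 54.3 and 68.2 TPM (log2 difference 2.83 ± 0.52 (SE), adjusted p = 0.00694) and Crabp1 from 60.8, 58.3 and 48.4 to 18.8, 11.8 and 10.6 TPM (log2 difference -1.98 ± 0.21 (SE), adjusted p = 0.00104). Cyp26a1, which degrades retinoic acid, rose to 22, 3.81 and 3.23 TPM (2.32, adjusted p = 0.0239), highest in replicate 1, where Crabp2 was lowest.

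**Figure D4:**
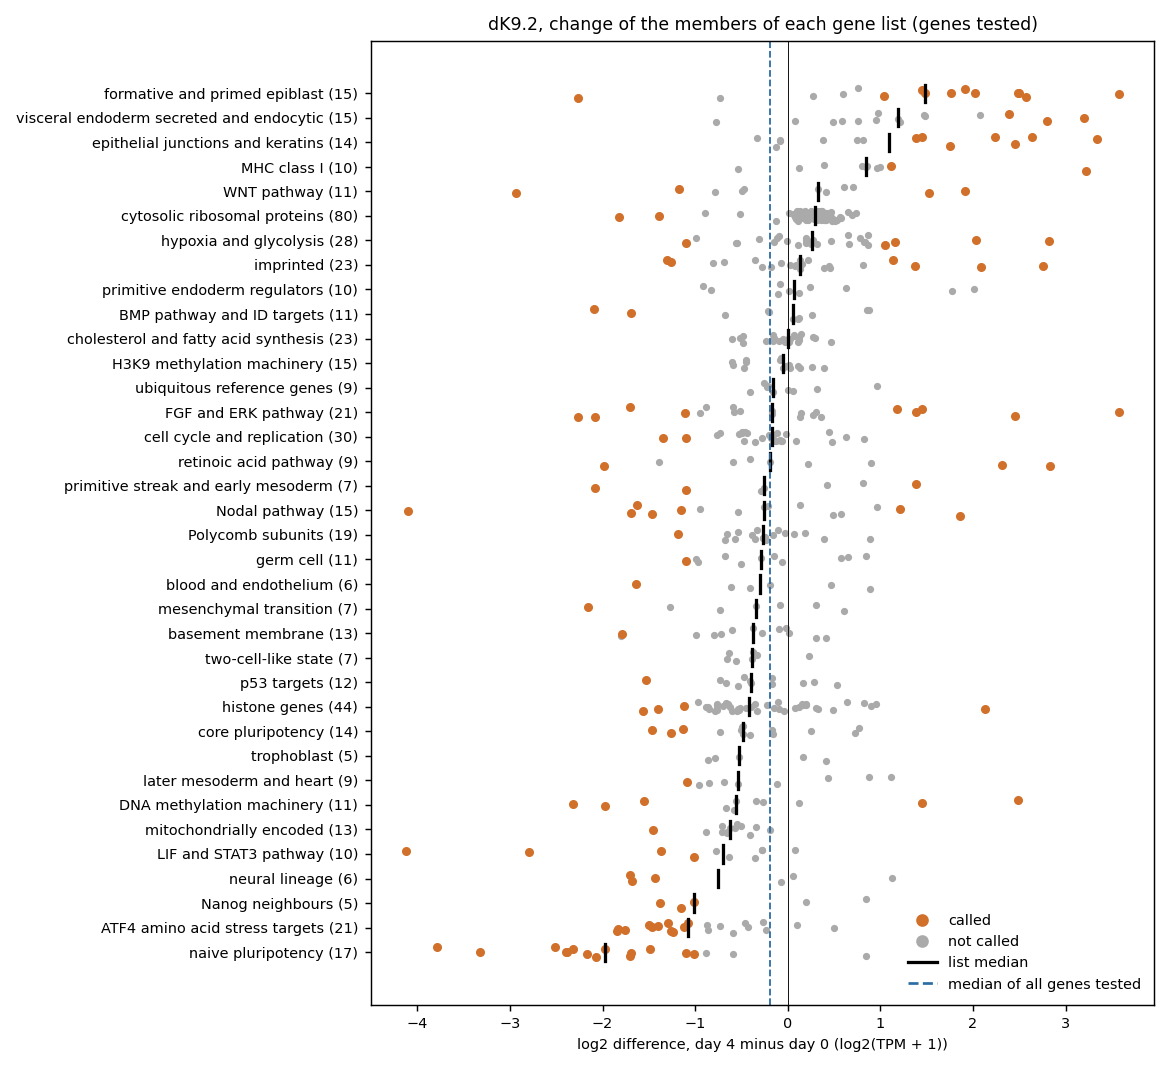
Log2 difference between day 4 and day 0 in dK9.2 (log2(TPM + 1)) for each tested member of the lists with at least 5 members tested (points; orange, called; grey, not called; number tested in brackets), with list medians (black bars) and the median of all genes tested (dashed, -0.20). The naive and ATF4 lists lie lowest and the formative, visceral endoderm and epithelial lists highest.

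The change in dK9.2 was set beside that of E14Tg2a, the parent line with the intact stretch, and of dK9.1, the other clone, each with its own day 0 libraries. In E14Tg2a 541 genes were higher and 644 lower (3.76 and 4.48% of the genes tested), and in dK9.1 232 were higher and 682 lower (1.65 and 4.84%). Of the higher genes of dK9.2, 401 of 402 also had a positive difference in E14Tg2a, and of the lower genes 773 of 780 had a negative one. Of the higher genes of dK9.2 that were tested in E14Tg2a, 320 of 402 (79.6%) were also called higher there, which is 62.1% of the 515 higher calls of E14Tg2a tested in dK9.2. For lower genes the overlap was 485, 62.2% of the calls of dK9.2 and 76.7% of those of E14Tg2a. With dK9.1 the overlap was 194 higher genes (48.5% of the calls of dK9.2 and 84.0% of those of dK9.1) and 438 lower genes (57.3 and 66.3%). Over the 13938 genes tested in both, the log2 differences of dK9.2 and E14Tg2a had a Pearson correlation of 0.86, and over the 13762 shared with dK9.1 it was 0.81. These correlations are across genes, which are not independent.

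The difference between the changes was tested directly in 18 libraries. Of 15049 genes tested, 0 were called against E14Tg2a and 0 against dK9.1 (limma, interaction term), while before adjustment 796 and 1053 genes (5.29 and 7.0%) passed the unadjusted 0.05 level. With a replicate block 0 were called against E14Tg2a, and against dK9.1 3 were above and 2 below. The 95% interval of a gene's difference, not adjusted for the number of genes, had a median half-width of 0.53 on the log2 scale. For a typical gene smaller differences could thus not be told from 0 even before adjustment. A call also needed the adjusted p and the fold threshold, so larger differences could go uncalled too. Sfrp5 had the lowest p against E14Tg2a, with a difference of -1.73 and an adjusted p of 0.458. For Nanog, which lies at the deletion, the change in dK9.2 minus that in E14Tg2a was -0.18 (95% interval -0.43 to 0.07, adjusted p = 0.965), and minus that in dK9.1 it was 0.21 (95% interval -0.04 to 0.46, adjusted p = 0.811). Klf4 gave -0.03 (95% interval -0.70 to 0.64, adjusted p = 0.997) against E14Tg2a, and Socs3 gave -0.01 (95% interval -0.39 to 0.38, adjusted p = 0.999). Fgf5 rose by 3.57 in dK9.2, 4.71 in E14Tg2a and 3.87 in dK9.1, and the difference from E14Tg2a was -1.14 (95% interval -2.02 to -0.26, adjusted p = 0.937).

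Wider intervals were found where the replicates were uneven. Afp rose by 3.20 in dK9.2 and 6.23 in E14Tg2a, a difference of -3.03 (95% interval -5.97 to -0.09, adjusted p = 0.938), and Ttr gave -2.73 (95% interval -5.02 to -0.43, adjusted p = 0.937). In E14Tg2a 11 of 16 visceral endoderm genes were called higher, in dK9.2 3 of 15 and in dK9.1 0 of 12. The difference between these counts was not tested. The naive list had 14 of 17 genes lower in each of the 3 lines, and in E14Tg2a Dppa3 was called higher (1.19, adjusted p = 0.0166). The formative list had 10 of 15 genes higher in dK9.2, 12 of 16 in E14Tg2a and 9 of 16 in dK9.1. Pdpn and S100a13 had the lowest adjusted p against dK9.1, with dK9.2 minus dK9.1 at 1.06 and 1.76 (adjusted p = 0.0601 for both), and with a replicate block both were called (adjusted p = 0.0359). Myc was picked out after its values were seen. It fell in dK9.2 and in E14Tg2a (-1.34) and had a difference of -0.02 in dK9.1, and dK9.2 minus dK9.1 was -1.33 (95% interval -1.86 to -0.80, adjusted p = 0.199), which was called with a replicate block (adjusted p = 0.0359).

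**Figure D5:**
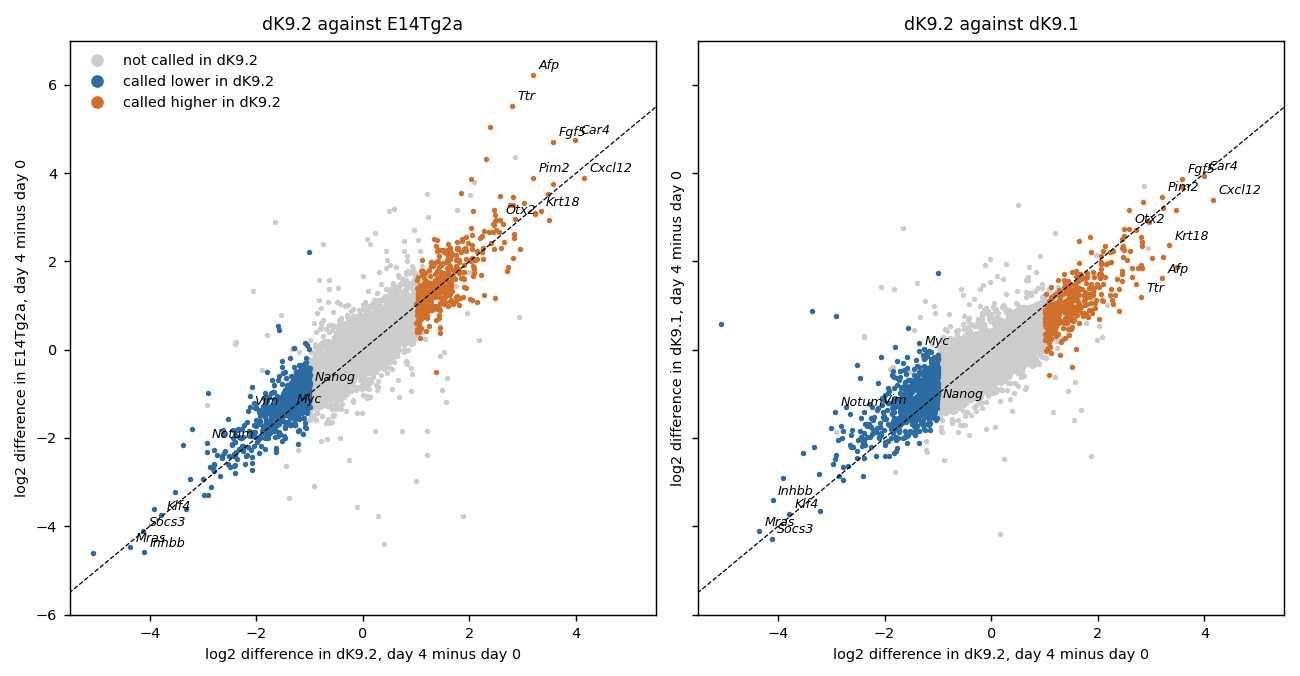
Log2 difference between day 4 and day 0 in dK9.2 (horizontal) against that in E14Tg2a (left) and dK9.1 (right) for each gene tested in all 3 lines (points; blue, called lower and orange, called higher in dK9.2; dashed line, equal change). Nearly all called genes have the same sign in both lines, Afp and Ttr lie above it in the E14Tg2a panel, and Myc lies above it in the dK9.1 panel.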

How the data were processed

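Poly-A selected, stranded, paired-end RNA-seq was analysed for 3 dK9.2 libraries of day 0 and 3 of day 4. Per the study's methods and the labels, the authors aligned reads to mm10 with STAR, quantified genes with RSEM and deposited TPM values for 16336 genes, after leaving out outliers found by principal component analysis. Versions are not given in the sources used here, and the depth of each library could not be computed from TPM. Columns with the authors' own DESeq2 fold changes and FDR values were not used.

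From these TPM, log2(TPM + 1) was fitted with limma 3.58.1 (R 4.3.3; intensity trend) for genes whose mean reached 1 TPM on either day. A gene that reached it on 1 day only had its higher mean on that day by construction. Genes were called at a Benjamini-Hochberg adjusted p under 0.05 and an absolute log2 difference above 1. The study's methods describe 3 independent assays, in which the lines were differentiated side by side, but the labels do not say whether a replicate number marks the same assay on both days. The difference between lines was an interaction term over 18 libraries. On simulated data, 96% of 200 genes given a log2 change of 2 and 87.5% of 200 given one of 1.5 were recovered for dK9.2. At a change of 2, 93.5% were recovered for the difference from E14Tg2a and 97% for that from dK9.1.

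Members and gene lists were chosen with earlier results of these data known. Genes named were the Nanog neighbours, up to 4 called members with non-overlapping libraries per list plus defining markers, and the 10 largest rises and falls at 5 TPM or more, leaving out symbols of predicted genes. Other list members were named after their values were seen. Promoters are RefSeq's (GRCm38.p6) and gene positions GENCODE M21's, matched by symbol for 16078 of the 16336 genes.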

Additional observations from a re-analysis of the deposited data

How the results depend on the processing

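The counts of higher and lower genes in dK9.2 stayed within 1.5 times of 406 and 805 under 8 other settings each, except that rescaling by the median ratio gave 520 lower genes (with 587 higher, within that range). The shift of -0.20 in the median of all genes is what that rescaling removes. Leaving out 1 library gave between 365 and 504 higher and between 621 and 1097 lower genes. The highest counts, 504 and 1097, came without replicate 1 of day 4. Without replicate 1 on both days, a setting chosen after seeing the data, 532 were higher and 986 lower. In that setting Klf2 (-1.14), Nodal (-1.10) and Pycr1 (-1.15) were called lower and Zic5 (0.80) was no longer called. Of 93 called genes followed through every setting, 0 changed direction under any setting and 72 stayed called under all of them. Rescaling ended the calls of Nanog (-0.80), Gdf3, Dppa2, Junb, Myl4, Prdm14, Sfrp1, Eed, Ccnd3, Hist1h4i, Cdx1, Spred1, Pfkp, Mthfd2, Slc7a5 and Magel2. The calls of Afp, Ttr and Apoa1 were lost with any single day 0 library left out.

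Same-numbered dK9.2 libraries of the 2 days had deviations from their group means that correlated at 0.26, 0.048 and 0.22. Day 0 replicate 2 was about as close to day 4 replicate 3 (0.054). In E14Tg2a the same-numbered values were 0.33, 0.21 and 0.10, and day 0 replicate 3 was closer to day 4 replicate 2 (0.14). In dK9.1 they were 0.19, 0.05 and 0.18. These values do not settle whether the numbers pair the libraries. The labels do not state a pairing, so the main test used none. With a replicate block 431 genes were higher and 838 lower, and the difference from E14Tg2a had 0 calls, with 1404 genes at an unadjusted p under 0.05. With the same block 3 genes (Pdpn, S100a13 and Tmc7) had a change in dK9.2 above that in dK9.1 and 2 (Myc and Platr7) below it. Without the intensity trend 3 genes were above dK9.1 and 1 below, and with a minimum of 5 TPM 2 were above. In a fit of all 33 libraries 1 gene, the predicted gene Gm26448, was above E14Tg2a. Leaving out 1 library gave between 0 and 2 genes above and between 0 and 2 below E14Tg2a, and between 0 and 1 in each direction against dK9.1. For these differences the cause was not tested.

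Among genes that were not called, signs turned under rescaling for Sox17 (0.0296), Pax6 (0.0811) and Ddx4 (0.0487). With 1 library left out, the log2 difference ranged from -0.90 to 0.80 for Sox17, from -0.60 to 0.83 for Gata4, from -0.66 to 0.87 for Gata6 and from -0.26 to 0.10 for Pax6. As TPM keep no depth, it could not be used to limit any of these values.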

Other observations

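Few genes crossed from very low to clear levels. Under 1 TPM in every day 0 library and at 5 TPM or more in every day 4 library were 7 genes, Bhlhe41, Cxcl12, Dlg2, Mir670hg, Oasl2, Psmb8 and Zmynd10. Oasl2 and Psmb8 are interferon-inducible genes. In the opposite direction were also 7 genes, Emp1, Gm13245, Gm49089, Igfbp7, Platr16, Tgm1 and Vegfc. Vegfc is a lymphatic growth factor and Igfbp7 a secreted IGF-binding protein. These genes were found by their values and are given as a description.

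The two-cell-like state, a rare state of ES cells marked by Zscan4 genes, had 0 of 7 genes called in either direction (limma), and before adjustment 0 passed the 0.05 level. Its summed level was highest in replicate 1 on both days, at 78.6 TPM against 15.3 and 27.9 TPM on day 0 and at 56.3 TPM against 26.9 and 4.6 TPM on day 4. Zscan4 genes are near-identical copies, so their separate values are uncertain. Of 44 histone genes tested, 1 rose and 3 fell, near the 2.83% higher and 5.6% lower of all genes, and their mostly non-polyadenylated transcripts are only partly captured by poly-A selection. Hist3h2ba, the gene that rose, was at 3.28, 2.04 and 2.31 TPM on day 0 and at 5.69, 14.4 and 34.5 TPM on day 4. Hist1h2bc, Hist2h2aa2 and Hist1h4i were the 3 that fell. The count of rises was 0 without day 0 replicate 2 or 3 or day 4 replicate 2, 2 without day 0 replicate 1, 3 without day 4 replicate 1 and 4 without replicate 1 on both days, and that of falls was 5 without day 4 replicate 3.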
